A study of Mus musculus with 21 samples.

Results

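The tricarboxylic acid (TCA) cycle enzymes described here are the products of 9 nuclear genes: Cs, Idh3a, Idh3b, Idh3g, Ogdh, Dlst, Suclg1, Sucla2 and Mdh2. They were found by matching the Ensembl identifiers of the deposited count table to these symbols, and all 9 were present among its 55450 genes and among the 17309 genes that passed the filter on low counts. The matching itself used no measured value, but the members were chosen with earlier results of these data known. Left ventricular RNA was sequenced from 21 male mice of strain 129S6/SvEv in 4 groups. Wild-type mice received the control diet (WT-CD, n = 5) or the same diet with empagliflozin, an inhibitor of the sodium-glucose cotransporter SGLT2 (WT-EMPA, n = 5). Mice with genotype Myh6+/R404Q, written R403Q here, carry 1 mutant allele of the cardiac α-myosin heavy chain, a model of hypertrophic cardiomyopathy, and received the control diet (R403Q-CD, n = 7) or the EMPA diet (R403Q-EMPA, n = 4). The EMPA diet held 0.15 mg drug per g, or about 15 mg per kg body weight. The diets began at an age of 9 to 10 weeks. The 16 weeks of diet in the labels apply to the whole study, and per its methods the sequenced hearts were taken at an age of 12 weeks, after 2 weeks of EMPA. The labels' protocol and these methods name 3 groups, without WT-EMPA. By the cage given in the labels, animals on CD were housed in 4 cages and those on EMPA in 3, with 0 cages holding both diets, so cage and diet cannot be told apart.

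The TCA cycle runs in the mitochondrial matrix and oxidizes acetyl groups from fatty acids, pyruvate, ketone bodies and amino acids to carbon dioxide. It passes the electrons to the respiratory chain as NADH and FADH2. The heart depends on it for most of its ATP, and the dehydrogenases IDH3 and 2-oxoglutarate dehydrogenase are activated by calcium in the matrix.

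Totals ran from 23491535 to 43539684 counts a mouse (median 33329649), and the lowest count of any member in any mouse was 9465, so that counting error was small beside the spread between mice. The 9 genes together took 0.618 to 1.09% of a mouse's counts. Cardiomyocyte markers were abundant in all mice, with Myh6 at 1.95 to 5.19% of counts. R403Q-CD 2 stood apart from the other libraries. It had the lowest mean level of the 10 cardiomyocyte markers (12.28 as mean log2 CPM, the counts scaled to library size, against 12.65 to 12.97 in the other 20 mice) and the highest levels of the fibroblast, macrophage and atrial lists. R403Q-CD 5 was next lowest in the cardiomyocyte and next highest in the fibroblast list. In bulk tissue, fewer cells of a type and less RNA per cell cannot be told apart.

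RefSeq promoter windows, reaching from 250 bases before to 50 bases after a transcript start (GRCm38.p6), were matched by symbol for 8 of the 9 genes (not Idh3a), in 13 windows, 6 of them for Ogdh. The following 120 bases before the start are shown for Cs and Ogdh, the members with the largest differences between genotypes, and for Idh3g and Sucla2, whose windows hold motifs of factors known for mitochondrial genes. Capitals mark motif matches on either strand. In Cs (chr10:128337607-128337726, plus strand) they are CCAAT at 116 and 55 bases and GGGCGG at 76 (opposite strand) and 21 bases before the start. In Ogdh (chr11:6291477-6291596, plus strand) they are CCAAT at 92 (opposite strand) and 60 bases. In Idh3g (chrX:73786898-73787017, minus strand) the match is CCGGAAG, a motif of the ETS factor GABPA, at 104 bases. In Sucla2 (chr14:73552666-73552785, plus strand) they are GGGCGG at 77 bases (opposite strand) and the NRF1 motif at 17 bases.
Cs: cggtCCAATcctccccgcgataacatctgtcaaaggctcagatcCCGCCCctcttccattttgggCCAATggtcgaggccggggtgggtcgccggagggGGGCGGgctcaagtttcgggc
Ogdh: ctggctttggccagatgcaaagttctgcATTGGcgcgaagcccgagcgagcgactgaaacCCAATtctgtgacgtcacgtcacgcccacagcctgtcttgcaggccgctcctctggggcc
Idh3g: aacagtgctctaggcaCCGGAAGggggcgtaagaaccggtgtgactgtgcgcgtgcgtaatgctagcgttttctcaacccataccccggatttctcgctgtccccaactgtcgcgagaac
Sucla2: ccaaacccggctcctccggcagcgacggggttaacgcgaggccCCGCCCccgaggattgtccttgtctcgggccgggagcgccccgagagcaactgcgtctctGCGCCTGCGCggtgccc
Of all 32851 windows of this length, 37.4% hold CCAAT, 35.7% GGGCGG, 8.86% CCGGAAG and 4.6% the NRF1 motif on either strand. CCGGAAG was also found at the start of Idh3b and just after that of Dlst. AAGGTCA, the core element of oestrogen-related receptors, is in 4.72% of windows and was found among the members in 1 later Ogdh window, across its start. The motifs did not overlap each other in the stretches shown. These matches describe the letters only.

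Levels are given as CPM, the counts of a gene as a share of the TMM-scaled total of its library. To compare genes with each other, CPM were divided by the length of all annotated exons of a gene, which for Dlst (9559 bases) is long and lowers its value. In WT-CD hearts the order per kilobase of exon was Ogdh (537 ± 21.1), Mdh2 (372 ± 24.7), Idh3b (300.2 ± 25.5), Cs (295 ± 16.6), Idh3g (242 ± 13.8), Sucla2 (202 ± 14.6), Idh3a (162 ± 12.7), Suclg1 (102 ± 7.71) and Dlst (81.5 ± 6.62; CPM per kb, SD, n = 5). The mice of neighbouring genes in this order overlapped for Idh3b and Cs and for Suclg1 and Dlst, and for no other neighbours. Cs stood above Idh3b in WT-EMPA (296 against 271 CPM per kb) and below it in the other 3 groups. Within R403Q-CD every pair of neighbours overlapped, with R403Q-CD 2, the lowest mouse for each member, included.

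The first comparison, R403Q-CD against WT-CD, asks how the mutation bears on these transcripts without drug. All 9 members had a lower mean in R403Q-CD, by 0.12 to 0.35 on the log2 scale (median -0.21, against 0.01 over all genes). No member passed an adjusted p of 0.05 (edgeR quasi-likelihood test with Benjamini-Hochberg adjustment over 17309 genes), whereas 1.44% of all genes did, and 4 of 9 members had an unadjusted p under 0.05, as did 20.9% of all genes. Of all genes, 47.5% had a log2 fold change below 0. The members varied together from mouse to mouse, so counts of their directions, here and below, are not counts of separate observations. With DESeq2 1 member, Cs, passed (adjusted p = 0.0446), as did 5.6% of all genes.

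Cs (chromosome 10, 128337734 to 128362479, plus strand, GRCm38) encodes citrate synthase, which joins acetyl-CoA with oxaloacetate in the entry step of the cycle. Its level was 1697, 1642, 1746, 1839 and 1590 CPM in the 5 WT-CD mice and 1912, 1651, 1551, 1760 and 1675 CPM in the 5 WT-EMPA mice. In R403Q-CD the lowest mouse had 836, the median 1402 and the highest 1663 CPM, and the 4 R403Q-EMPA mice had 1365, 1475, 1413 and 1480 CPM. The ranges of the wild-type groups overlapped, and 6 of 7 R403Q-CD mice lay below every WT-CD mouse. Across both diets 10 of 11 R403Q mice lay below all 10 wild-type mice, with R403Q-CD 3 as the exception. The share of all genes with such patterns was not counted, so how unusual they are is not known. R403Q-CD stood at 0.782 of the WT-CD level (log2 fold change -0.35, SE 0.12, edgeR adjusted p = 0.1). Without R403Q-CD 2 the difference was -0.27 (edgeR adjusted p = 0.0956). Without R403Q-CD 3 it was -0.42 and passed (edgeR adjusted p = 0.0368), as did 6.02% of all genes in that fit.

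Mdh2 (chromosome 5, 135778480 to 135790398, plus strand) encodes the mitochondrial malate dehydrogenase, which regenerates oxaloacetate for citrate synthase. Its level was 1319, 1230, 1468, 1291 and 1312 CPM in WT-CD, while in R403Q-CD it ran from 861 over a median of 1215 to 1294 CPM. In R403Q-CD 4 of 7 mice lay below every WT-CD mouse, and the ranges overlapped. The log2 fold change was -0.21 (SE 0.09, edgeR adjusted p = 0.172), and -0.15 without R403Q-CD 2.

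**Figure D1:**
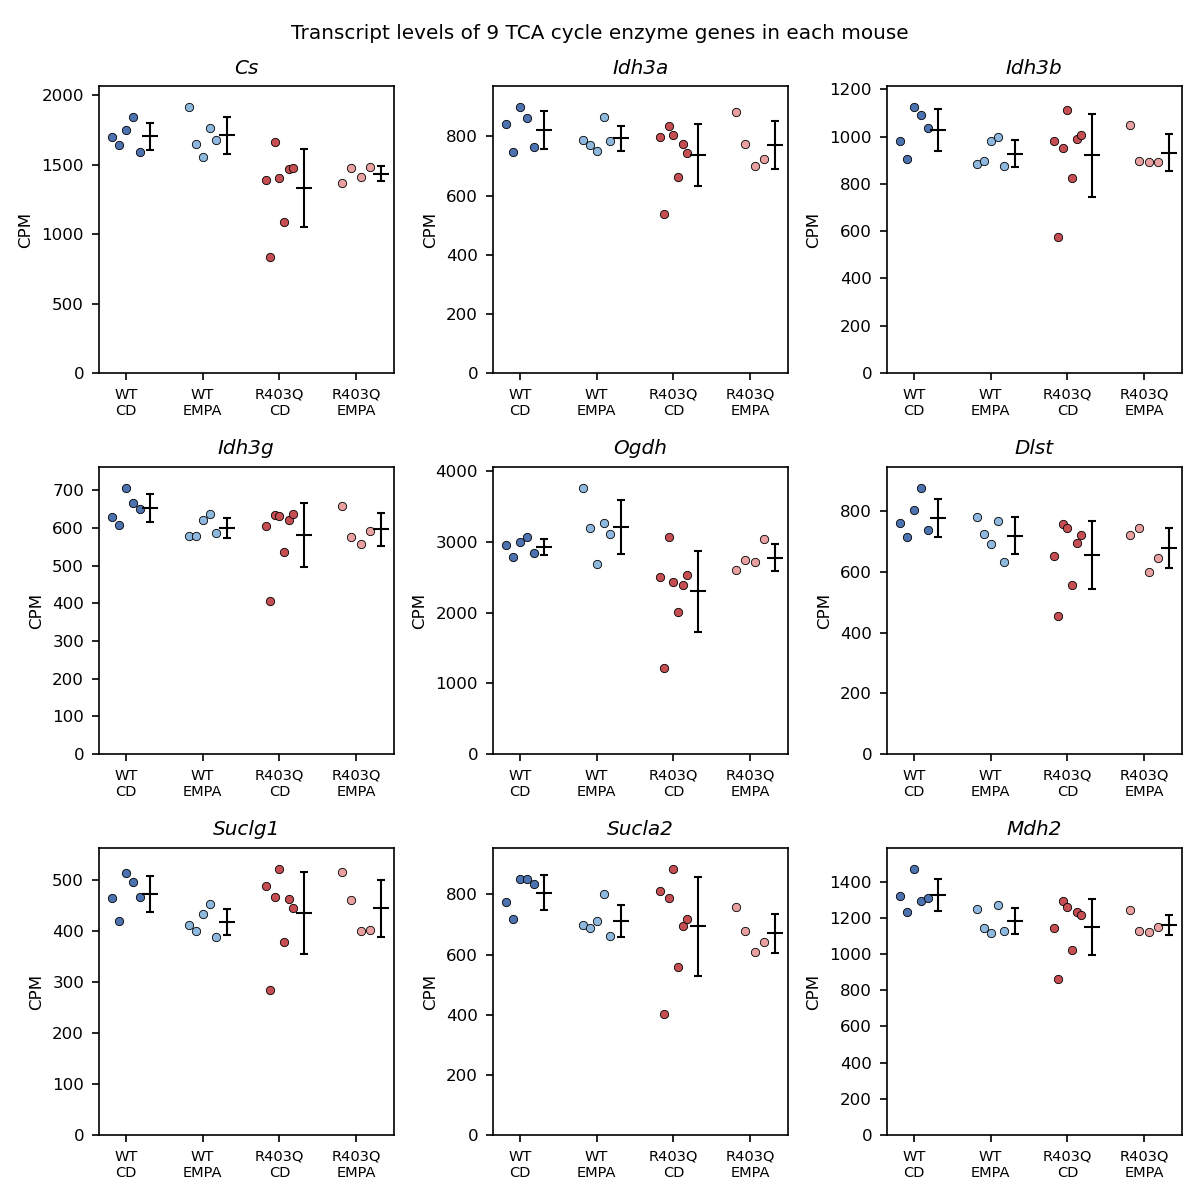
Level of each of the 9 TCA enzyme genes in CPM (vertical axes from 0) in the 4 groups (horizontal axis), with 1 point a mouse and the mean ± SD beside them. In each panel the lowest point is R403Q-CD 2, and in Cs the 4 R403Q-EMPA mice, at 1365 to 1480 CPM, lie below all 10 wild-type mice.

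Idh3a, Idh3b and Idh3g encode the subunits of the NAD-dependent isocitrate dehydrogenase, with the catalytic subunit α and the regulatory subunits β and γ. Idh3a lies on chromosome 9 (54586334 to 54604661, plus strand), Idh3b on chromosome 2 (130279309 to 130284547, minus strand) and Idh3g on chromosome X (73778963 to 73786897, minus strand). Idh3b shares 5 exon bases with Nop56 on the opposite strand, which strand-aware counting keeps apart. Mean levels in WT-CD and R403Q-CD were 823 ± 64.4 and 737 ± 104 CPM for Idh3a, 1027 ± 87.2 and 920.2 ± 174 CPM for Idh3b, and 652 ± 37.2 and 582 ± 85.1 CPM for Idh3g (SD, n = 5 and 7). The log2 fold changes were nearly equal, at -0.16 for Idh3a, -0.16 for Idh3b and -0.17 for Idh3g, and the edgeR adjusted p-values ran from 0.291 to 0.426. Without R403Q-CD 2 they were -0.10, -0.08 and -0.10.

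Ogdh and Dlst encode the E1 and E2 components of the 2-oxoglutarate dehydrogenase complex, which makes succinyl-CoA. Ogdh (chromosome 11, 6291633 to 6356642, plus strand) had 2954, 2783, 3001, 3068 and 2850 CPM in WT-CD. In R403Q-CD the lowest mouse had 1211, the median 2435 and the highest 3065 CPM. Here too 6 of 7 R403Q-CD mice lay below every WT-CD mouse, with R403Q-CD 3 inside their range, and R403Q-CD 2 was far below the rest. The log2 fold change was -0.35 (SE 0.14, edgeR adjusted p = 0.174), and -0.24 without R403Q-CD 2. Dlst (chromosome 12, 85110833 to 85134845, plus strand) had 762.5, 715, 803, 877 and 740 CPM in WT-CD and 455, 695 and 757 CPM as the lowest, median and highest of R403Q-CD. Its groups overlapped, with 4 of 7 R403Q-CD mice below every WT-CD mouse (log2 fold change -0.25, SE 0.10, edgeR adjusted p = 0.18).

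Suclg1 and Sucla2 encode the α subunit and the ADP-specific β subunit of succinyl-CoA ligase, the step of the cycle that makes a nucleoside triphosphate directly. Suclg1 lies on chromosome 6 (73248382 to 73276911, plus strand) and Sucla2 on chromosome 14 (73525319 to 73596142, plus strand). Suclg1 had the smallest difference of the 9, with 473 ± 35.6 CPM in WT-CD and 436 ± 80.0 CPM in R403Q-CD (SD, n = 5 and 7; log2 fold change -0.12, edgeR adjusted p = 0.563). Sucla2 had 806 ± 58.0 and 694 ± 165 CPM (SD, n = 5 and 7; log2 fold change -0.22, edgeR adjusted p = 0.353). Without R403Q-CD 2 the differences were -0.04 for Suclg1 and -0.12 for Sucla2. For both genes 1 R403Q-CD mouse, R403Q-CD 4, lay above every WT-CD mouse, and the spread within R403Q-CD exceeded the difference of the means.

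All 9 members were lowest in R403Q-CD 2 and next lowest in R403Q-CD 5. Without R403Q-CD 2 all 9 differences stayed below 0, with a median of -0.12 in place of -0.21. Among the other cell types, 2 of 6 macrophage markers passed in R403Q-CD against WT-CD. Adgre1, which encodes the F4/80 antigen, had 18.4 against 11.5 CPM (edgeR adjusted p = 0.0351), and Csf1r, the receptor for macrophage colony-stimulating factor, 66.5 against 48.5 CPM (edgeR adjusted p = 0.0254). Fibroblast markers had a median log2 fold change of 0.93 with 0 of 8 past the threshold (edgeR, 6 of 8 at an unadjusted p under 0.05), and cardiomyocyte markers one of -0.14 with 0 of 10 past it (edgeR, 4 of 10 unadjusted). The mean log2 level of the fibroblast list ran from 5.93 to 6.99 in WT-CD and from 6.28 to 8.57 in R403Q-CD. That of the cardiomyocyte list ran from 12.83 to 12.97 and from 12.28 to 12.91. Without R403Q-CD 2 the difference of the means went from 0.64 to 0.38 for the fibroblast list and from -0.18 to -0.10 for the cardiomyocyte list. The part of these lists in the members' differences was not tested.

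As a description with no test, and chosen after the levels were seen, each member was set against the mean log2 level of the cardiomyocyte markers of the same mouse. On this scale the 3 IDH3 genes stood at the same height in both control-diet groups, with R403Q-CD minus WT-CD differences of 0.00 for Idh3a, -0.01 for Idh3b and -0.00 for Idh3g. Suclg1 differed by 0.04 and Mdh2 by -0.04, while Sucla2 and Dlst lay between, at -0.08 and -0.09. Cs and Ogdh were lowest, at -0.21 and -0.22, and in each 6 of 7 R403Q-CD mice lay below all 10 wild-type mice. Without R403Q-CD 2 these differences were -0.18 for Cs, -0.15 for Ogdh, -0.08 for Dlst, -0.05 for Mdh2, -0.03 for Sucla2 and 0.06 for Suclg1, so that the order of the middle genes rested on this library. The mean over the 9 members minus the cardiomyocyte markers was -2.94 ± 0.06 in WT-CD, -2.99 ± 0.02 in WT-EMPA, -3.00 ± 0.10 in R403Q-CD and -3.00 ± 0.03 in R403Q-EMPA (log2, SD, n = 5, 5, 7 and 4). The cardiomyocyte list holds Myh6 itself, which had 32930 against 43240 CPM in R403Q-CD and WT-CD (edgeR adjusted p = 0.158).

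**Figure D2:**
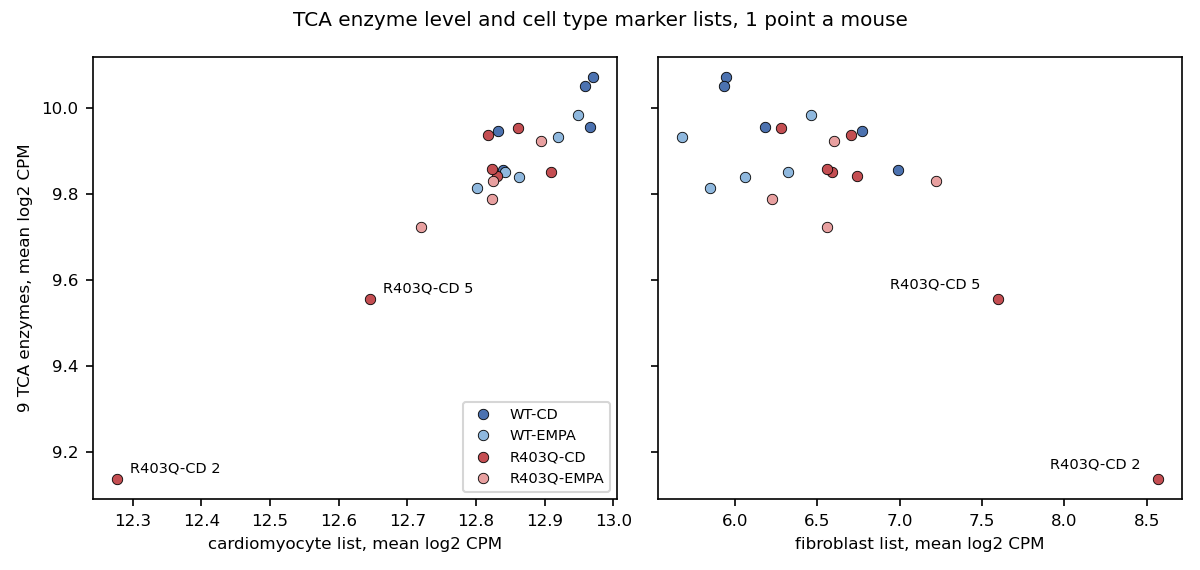
Mean log2 CPM of the 9 TCA enzyme genes (vertical axis) against that of the cardiomyocyte list (left) and the fibroblast list (right), with 1 point a mouse coloured by group. R403Q-CD 2 and R403Q-CD 5 have the lowest enzyme means (9.14 and 9.56), the lowest cardiomyocyte means (12.28 and 12.65) and the highest fibroblast means (8.57 and 7.60).

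The second comparison, R403Q-EMPA against R403Q-CD, asks whether the drug bears on the members in mutant hearts. No member passed the threshold or had an unadjusted p under 0.05 (edgeR, and 0 members passed with DESeq2 or with limma on the variance-stabilized values), and over all genes 0.0116% passed, 13.4% had an unadjusted p under 0.05 and 1.05% passed with DESeq2. Of the 9 members 1 had a log2 fold change below 0 (2 with library size alone), against 50.8% of all genes, and the median was 0.04 against -0.00. Ogdh was the member furthest from 0. Its 4 R403Q-EMPA mice had 2608, 2745, 2723 and 3048 CPM, against 1211 to 3065 CPM in R403Q-CD. These lie within the upper part of the R403Q-CD range, with 1 R403Q-CD mouse, R403Q-CD 3, above them all (log2 fold change 0.27, 95% confidence interval -0.05 to 0.59, edgeR adjusted p = 0.451).

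For Cs the drug groups differed by 0.11 (95% confidence interval -0.15 to 0.37) and for the other 7 members by -0.05 to 0.07. The direction rested on R403Q-CD 2: without it 7 of 9 members were below 0 in R403Q-EMPA against R403Q-CD, with a median of -0.04, and Ogdh and Cs, the other two, were at 0.16 and 0.02. Without R403Q-CD 5 the members below 0 were 4, with a median of 0.01, and without R403Q-EMPA 1 they were 6, with a median of -0.02. The EMPA and CD mice also came from different cages. In both comparisons between diets 0 of 5 erythroid and 0 of 13 clock genes passed (edgeR), but 5 and 4 erythroid genes (median 0.64 in R403Q and 0.63 in WT) and 8 and 8 clock genes (from -1.03 to 1.61 and from -1.02 to 1.78) had an unadjusted p under 0.05. Of the atrial markers 3 of 4 did so in R403Q-EMPA against R403Q-CD (median -3.21, 0 passed), where their mean summed level was 142 CPM in R403Q-CD, 61.4 CPM without R403Q-CD 2, and 30.9 CPM in R403Q-EMPA. In that comparison 5 of 5 mural markers (median -0.71) and 7 of 8 fibroblast markers (median -0.49) were also lower. In each of these lists 2 had an unadjusted p under 0.05 and 0 passed (edgeR). Without R403Q-CD 2 the difference in mean log2 level was -0.48 for mural and -0.09 for fibroblast markers. Their part in the members' values was not tested.

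The third comparison, WT-EMPA against WT-CD, gives the difference between diets without the mutation. Here 7 of 9 members had a lower mean in WT-EMPA (8 of 9 below 0 with library size alone), with a median of -0.12 against -0.00 over all genes, of which 50.9% were below 0. No member passed or had an unadjusted p under 0.05 (edgeR, and 0 passed with DESeq2), and 0.0289% of all genes passed, 11% had an unadjusted p under 0.05 and 0.752% passed with DESeq2. Mdh2, with 1247, 1145, 1115, 1269 and 1127 CPM in WT-EMPA, had 3 of 5 mice below every WT-CD mouse (log2 fold change -0.17, SE 0.09, edgeR adjusted p = 0.53). Suclg1 had 411, 401, 433, 452 and 389 CPM in WT-EMPA and 466, 420.3, 513, 497 and 466 CPM in WT-CD, and its ranges overlapped (-0.18, edgeR adjusted p = 0.606). Sucla2 had the same difference (-0.18), with 4 of 5 WT-EMPA mice below every WT-CD mouse.

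Ogdh went the other way, at 3762, 3206, 2692, 3276 and 3117 CPM in WT-EMPA. Of these mice 4 of 5 lay above every WT-CD mouse, whereas WT-EMPA 3 lay below them all (log2 fold change 0.13, SE 0.16, edgeR adjusted p = 0.799). Cs was level between the diets (0.01, 95% confidence interval -0.26 to 0.27). The EMPA effect in R403Q minus that in WT was above 0 for all 9 members, at 0.10 to 0.21 (median 0.16 against -0.00 over all genes, with 50.2% of them below 0). No member passed (edgeR adjusted p = 0.999 for each), 0 had an unadjusted p under 0.05, and over all genes 0% passed (edgeR, 567 genes or 3.28% at an unadjusted p under 0.05, and 0 with DESeq2). Without R403Q-CD 2 this median was 0.08. The interval was widest for Ogdh, from -0.32 to 0.59.

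**Figure D3:**
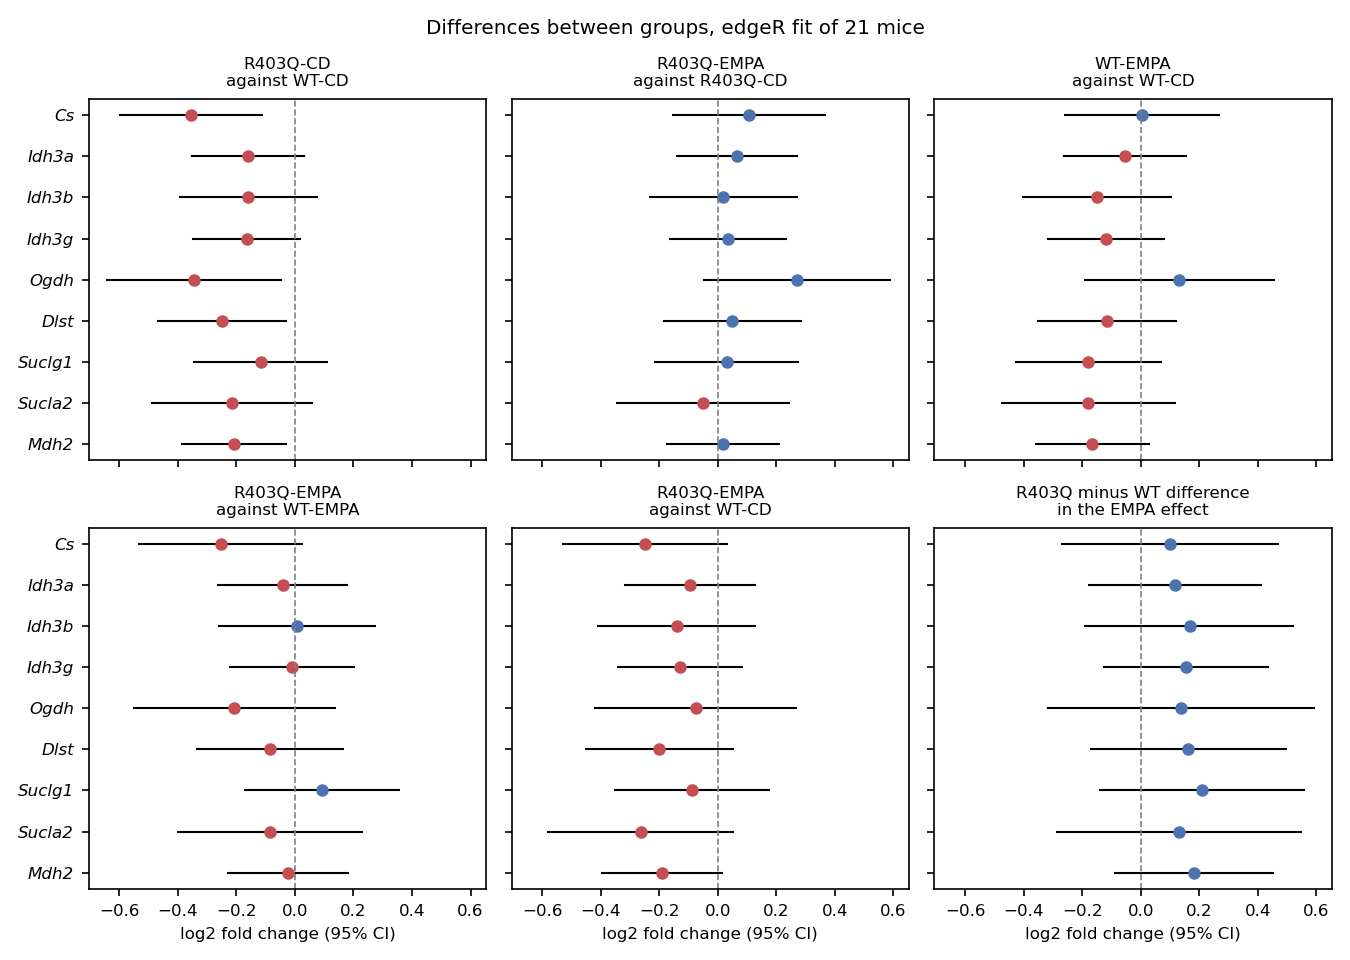
Log2 fold change (point) and 95% confidence interval (line) of the 9 members in the 5 comparisons and for the EMPA effect in R403Q minus that in WT, from the edgeR fit of 21 mice, with points below 0 in red and above 0 in blue. All 9 points lie below 0 in R403Q-CD against WT-CD (median -0.21), and in R403Q-EMPA against R403Q-CD only Sucla2 does (-0.05).

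R403Q-EMPA was also set against both wild-type groups. It shares its mice with the comparisons above, so that the values are given side by side. Against WT-EMPA, which compares genotypes under the drug, 7 of 9 members were below 0 (4 with library size alone as the scaling, where Idh3a, Idh3g and Mdh2 turned), with a median of -0.04 (all genes 0.01, with 48.3% below 0). No member passed or had an unadjusted p under 0.05 (edgeR, and 0 passed with DESeq2), and 0.0578% of all genes passed, 14.7% had an unadjusted p under 0.05 and 1.86% passed with DESeq2. Cs had the largest difference (-0.25, SE 0.13, edgeR adjusted p = 0.384). It was the 1 member of 9 whose groups did not overlap, with every R403Q-EMPA mouse below every WT-EMPA mouse, as were 3.41% of all genes. In the 2 cages that held both genotypes, WT-EMPA 4 had 1760 CPM beside 1365 and 1475 CPM in its R403Q-EMPA mates, and WT-EMPA 5 had 1675 beside 1413 and 1480 CPM. The other 3 WT-EMPA mice had no mutant cage mate, so for them cage and genotype cannot be told apart. Ogdh differed by -0.21 (edgeR adjusted p = 0.576), and 4 of 5 WT-EMPA mice lay above every R403Q-EMPA mouse. The IDH3 genes differed by -0.04 to 0.01 and Suclg1 by 0.09. The median of the 9 turned on single mice: it was -0.11 without R403Q-EMPA 1 (8 below 0), -0.02 without R403Q-EMPA 3 or R403Q-EMPA 4 (6 and 7 below 0) and -0.01 without WT-EMPA 4 (5 below 0), and 0.01 with library size alone. Suclg1 was at 0.01 without R403Q-EMPA 1. In R403Q-EMPA against WT-EMPA 6 of 6 macrophage markers (median 0.63) and 8 of 8 fibroblast markers (median 0.66) were higher. Of these 6 and 2 had an unadjusted p under 0.05, and 0 passed (edgeR). The cardiomyocyte markers had a median of -0.06, with 6 of 10 below 0. The part of these lists in the members' values was not tested.

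Against WT-CD all 9 members were below 0, by 0.08 to 0.26 (median -0.14, all genes 0.01, with 47.8% below 0). No member passed or had an unadjusted p under 0.05 (edgeR, and 0 passed with DESeq2), and 0.971% of all genes passed, 13% had an unadjusted p under 0.05 and 2.29% passed with DESeq2. Sucla2, at 757, 679, 607 and 641 CPM in R403Q-EMPA and 773.5, 719, 850.5, 852 and 833 CPM in WT-CD, differed most (-0.26, SE 0.15, edgeR adjusted p = 0.491). In 4 of 5 WT-CD mice it was above every R403Q-EMPA mouse. Cs (-0.25, edgeR adjusted p = 0.458) was again the 1 member of 9 with every R403Q-EMPA mouse below every WT-CD mouse, as were 3.5% of all genes. Ogdh differed by -0.08 and Suclg1 by -0.09, and with a mouse left out Ogdh ran from -0.12 (without R403Q-EMPA 4) to -0.05 (without R403Q-EMPA 1) and Suclg1 from -0.17 (without R403Q-EMPA 1) to -0.04 (without R403Q-EMPA 4).

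Since IDH3, 2-oxoglutarate dehydrogenase and succinyl-CoA ligase are built from several gene products, the ratios between their subunits were compared in each mouse. Cs to Mdh2, enzymes of adjoining steps, was added. These 6 pairs were chosen after the members' levels were seen, and gave 30 exact two-sided permutation tests. Of these 5 had a p under 0.05 and 0 an adjusted p under 0.05 (Benjamini-Hochberg over the 30). With 4 or 5 mice in both groups the smallest possible exact permutation p, 0.00794, adjusted to 0.0595. There even fully separated ratios did not pass, so the threshold cannot decide about them. The 3 ratios among the IDH3 subunits overlapped between groups in all 5 comparisons, with a smallest exact permutation p of 0.119. Idh3a to Idh3b had a geometric mean of 0.802 in WT-CD, 0.856 in WT-EMPA, 0.808 in R403Q-CD and 0.826 in R403Q-EMPA (CPM ratio). Idh3b to Idh3g had 1.57, 1.54, 1.57 and 1.56 in the same order.

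Ogdh to Dlst was higher in each WT-EMPA mouse than in each WT-CD mouse. The 5 WT-CD ratios ran from 3.50 to 3.89 (geometric mean 3.77) and the 5 WT-EMPA ratios from 3.893 to 4.92 (4.45), so that the groups were separated by a narrow gap. The difference was 0.24 on the log2 scale (exact permutation p = 0.00794, the smallest this design can give, adjusted 0.0595). In R403Q-CD the ratio ran from 2.66 to 4.05 and in R403Q-EMPA from 3.62 to 4.70, and these groups overlapped (difference 0.25, exact permutation p = 0.0758, adjusted 0.284).

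Sucla2 to Suclg1, the 2 subunits of the ADP-forming ligase, had the same geometric mean, 1.71, in both wild-type groups, with a range of 1.66 to 1.79 in WT-CD and 1.64 to 1.77 in WT-EMPA. In R403Q-EMPA it ran from 1.467 to 1.595 (1.51), below every mouse of both wild-type groups. Both differences were -0.17 on the log2 scale (exact permutation p = 0.00794 each, the smallest possible, adjusted 0.0595). Within the 2 shared EMPA cages the ratio was 1.77 against 1.467 and 1.47, and 1.70 against 1.52 and 1.595 (WT against R403Q). R403Q-CD spanned 1.42 to 1.69 (1.58), with 4 of 7 mice below every WT-CD mouse (difference -0.12, exact permutation p = 0.0518, adjusted 0.233).

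Cs to Mdh2 was 1.39 to 1.53 in WT-EMPA and 1.10 to 1.31 in R403Q-EMPA, with no overlap (difference -0.23, exact permutation p = 0.00794, the smallest possible, adjusted 0.0595). Within the 2 shared EMPA cages it was 1.387 against 1.10 and 1.31, and 1.49 against 1.26 and 1.29 (WT against R403Q). In WT-CD it was 1.19 to 1.42 and in R403Q-CD 0.971 to 1.28, which overlapped (difference -0.17, exact permutation p = 0.0543, adjusted 0.233). Between the wild-type groups it was higher in WT-EMPA by 0.17 (exact permutation p = 0.0238, adjusted 0.143).

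**Figure D4:**
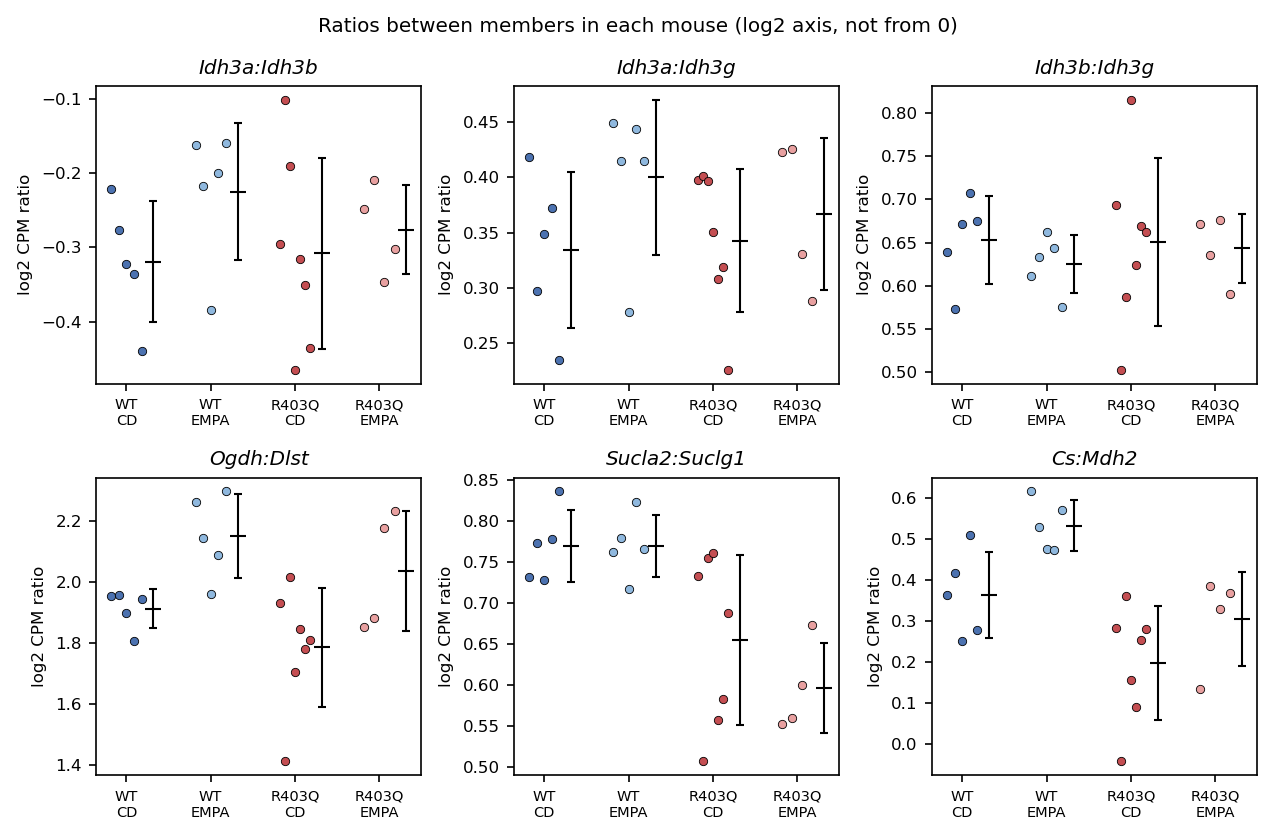
Log2 CPM ratio of 6 pairs of members (vertical axes, not from 0) in the 4 groups, with 1 point a mouse and the mean ± SD beside them. The IDH3 ratios overlap throughout, whereas the R403Q-EMPA points of Sucla2:Suclg1 (1.467 to 1.595 as plain ratios) lie below all wild-type points.

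The 9 members varied together from mouse to mouse. Over the 36 pairs of members, Pearson's r of log2 CPM across the 21 mice ran from 0.54 to 0.97 (median 0.88) and Spearman's rho from -0.02 to 0.91 (median 0.69). The deviations of the mice from their group means gave an r of 0.71 to 0.97. R403Q-CD 2 carried part of this, since without it r ran from -0.09 to 0.91 (median 0.74). The loosest pairs joined Cs or Ogdh with Suclg1 or Idh3b, at a rho of -0.02 for Ogdh with Suclg1 and 0.12 for Cs with Suclg1. These values are descriptions, and all points of a mouse share its library.

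The genes whose log2 CPM followed the members' mean z-score most closely over the 21 mice, among 9395 genes with a mean of at least 10 CPM, were Sod2 (r = 0.98), Ndufs1 (0.98), Ndufa10 (0.98), Immt (0.98), Atp5b (0.97), Slc25a11 (0.97), Fh1 (0.97) and Coq5 (0.97). Without R403Q-CD 2 their r was 0.90 to 0.96. Sod2 encodes the manganese superoxide dismutase of the matrix, Ndufs1 and Ndufa10 subunits of complex I, and Immt the mitofilin of the cristae junctions. Atp5b encodes the β subunit of ATP synthase, Slc25a11 the 2-oxoglutarate carrier, Fh1 fumarase and Coq5 a methyltransferase of coenzyme Q synthesis.

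Another 8 genes of the cycle were given the same test, and 0 of 8 passed in any of the 6 comparisons (edgeR). In R403Q-CD against WT-CD 7 of 8 were below 0 (median -0.23), against 47.5% of all genes. An unadjusted p under 0.05 was found for 3 of them, and for 20.9% of all genes. In mean log2 CPM without R403Q-CD 2 the median was -0.14, again with 7 of 8 below 0. Sdha and Sdhc, the flavoprotein and a membrane anchor of succinate dehydrogenase, differed by -0.35 (edgeR adjusted p = 0.114) and -0.27 (edgeR adjusted p = 0.092), and Sdhb, the iron-sulphur subunit, by -0.18. Sdhd, the other membrane anchor, was the exception at 0.03. Idh2, the NADP-dependent isocitrate dehydrogenase, differed by -0.31, and Suclg2, the GDP-specific β subunit of succinyl-CoA ligase, by -0.26. Dld, the E3 component shared by the 2-oxo acid dehydrogenases, differed by -0.20 and Fh1 by -0.18. In R403Q-EMPA against R403Q-CD all 8 lay above 0, by 0.01 to 0.14, but in mean log2 CPM without R403Q-CD 2 only 4 of 8 did, with Sdhb, Sdhc, Sdhd and Fh1 at -0.05 to -0.04. In WT-EMPA against WT-CD 7 of 8 lay below 0 (median -0.09), and against WT-EMPA and WT-CD R403Q-EMPA had 6 and 7 of 8 below 0. In R403Q-EMPA against WT-CD 1 of the 8, Sdhc, had an unadjusted edgeR p under 0.05 (0.016), as did 13% of all genes.

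**Figure D5:**
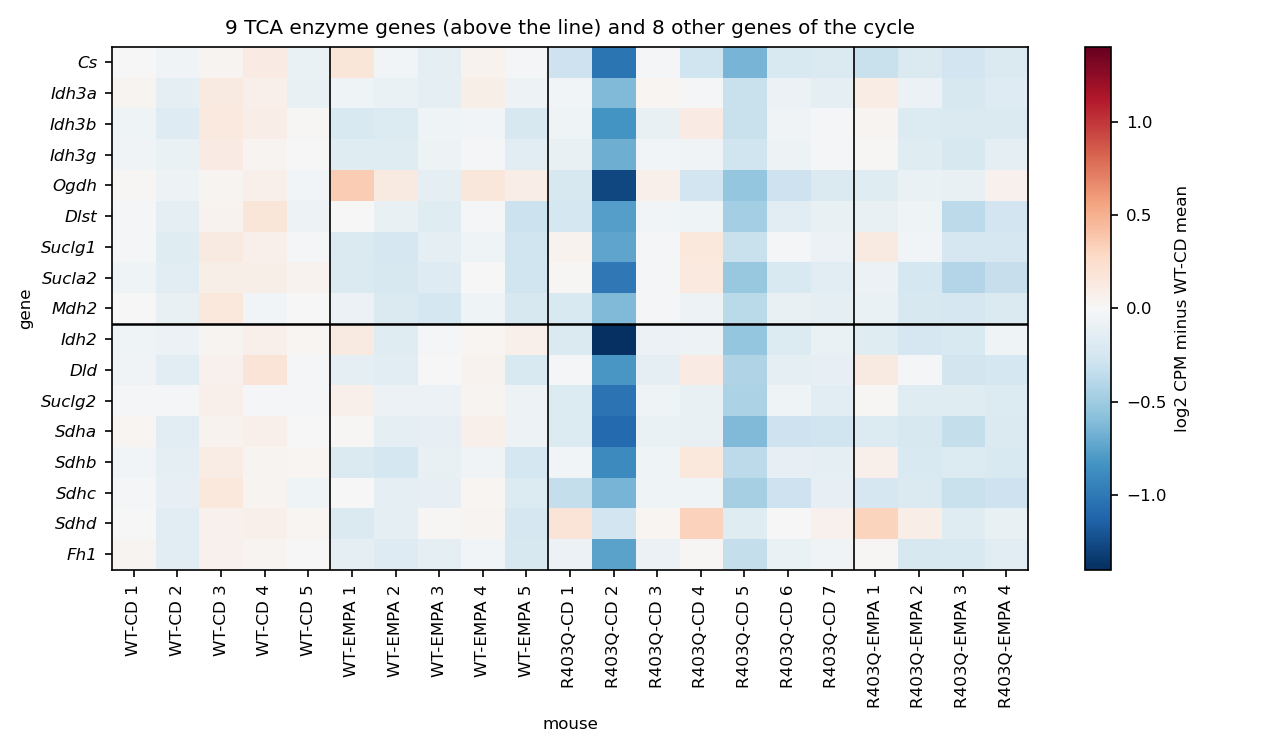
Log2 CPM minus the WT-CD mean (colour) of the 9 TCA enzyme genes, above the line, and 8 other genes of the cycle, below it, in each of the 21 mice (columns, ordered by group). R403Q-CD 2 and R403Q-CD 5 are blue in nearly all rows, and Sdhd is the row with the least blue in R403Q-CD (mean difference 0.02).

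Genes of neighbouring pathways were given the same test. Over all genes, 47.5% were below 0 and 20.9% had an unadjusted p under 0.05 in R403Q-CD against WT-CD. In R403Q-CD against WT-CD 0 of 17 genes of anaplerosis and the shuttles passed (edgeR, 6 unadjusted), with Me3, a mitochondrial malic enzyme, at -0.27 (edgeR adjusted p = 0.0872) and Got1, the cytosolic aspartate aminotransferase, at -0.34 (edgeR adjusted p = 0.108). None of the 4 genes of lipoylation and 2-oxoglutarate dehydrogenase assembly, among them the lipoyl transferases Lipt1 (-0.20) and Lipt2 (-0.23), and none of the 7 genes of the mitochondrial calcium uniporter and exchanger passed. Mcu, the pore of the uniporter, stood at -0.18 (edgeR adjusted p = 0.12) and Slc8b1, the mitochondrial sodium-calcium exchanger, at 0.15. Of 12 regulators of mitochondrial genes 10 were below 0 and 0 passed, with Esrrg, an oestrogen-related receptor, at -0.25 and Ppargc1b, a coactivator, at -0.45 (edgeR adjusted p = 0.132 and 0.159). Of 12 genes of mitochondrial content, import and chaperones 10 were below 0 (median -0.10, 0 passed), with Hspa9 at -0.24 and Tomm40 at -0.17. Without R403Q-CD 2 the mean log2 level of these lists moved nearer to WT-CD, from -0.10 to -0.04 for mitochondrial content, from -0.18 to -0.11 for the regulators and from -0.11 to -0.06 for anaplerosis and the shuttles.

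Lists of other cells and of the clock were tested in the same fit. In R403Q-EMPA against WT-CD, Csf1r (67.2 against 48.5 CPM), the erythroid genes Hbb-bs (1261 against 672 CPM), Hbb-bt (89.6 against 45.5 CPM) and Alas2 (64.8 against 36.3 CPM) were higher and the clock output gene Hlf (26.5 against 48.5 CPM) was lower (edgeR adjusted p = 0.0244 to 0.045). Hbb-bs and Hbb-bt are near-identical copies whose reads may be split between them. Of the endothelial markers Emcn stood at 0.49 in R403Q-CD against WT-CD (edgeR adjusted p = 0.0648) and Pecam1 at 0.18, of the mural markers Acta2 at 0.48 and Pdgfrb at 0.08, of the adipocyte markers Cfd at 0.41 and Adig at 0.23, of the atrial markers Myl4 at 1.01 and Sln at 1.083, and of the fibroblast markers Dcn at 0.49 and Lum at 0.88, and none of these passed in any comparison. The summed atrial markers had 142 CPM in R403Q-CD against 86.6 CPM in WT-CD, but 61.4 CPM without R403Q-CD 2, so that this direction rested on 1 library. Ryr2 stood at -0.40 among the cardiomyocyte markers. The part of these cells in the members' values was not tested.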

How the data were processed

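Left ventricular poly(A) RNA of 21 mice, 1 library a mouse, was sequenced as read pairs. The deposited counts were made by the authors by aligning reads to mm10 (STAR 2.6.0c) and counting uniquely aligned, proper, same-strand pairs per Ensembl gene (featureCounts, Subread 1.6.2), without mitochondrial genes. FastQC 0.11.7 and DESeq2 1.32.0 are also in the submitters' processing notes. The authors also deposited variance-stabilized values on a log2 scale, used here as an alternative only.

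Counts were filtered (filterByExpr, minimum count 10), scaled by TMM and fitted over all 4 groups with edgeR 4.0.16 in R 4.3.3, using the quasi-likelihood test with Benjamini-Hochberg adjustment over 17309 genes and a threshold of 0.05. Log2 CPM used a prior count of 2. Ratios of members were compared by exact two-sided permutation tests. The edgeR test was tested on simulated data. Mice are separate animals, numbered in accession order only. The members and gene lists were chosen with earlier results of these data known. Genes named outside the members are the other listed genes of the cycle, of which 1 is not reported here, those of another list past the threshold in any comparison, or otherwise its pair with the smallest p in R403Q-CD against WT-CD, and the 8 genes most like the members.

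Alternatives were DESeq2 1.42.0, limma 3.58.1 on the variance-stabilized values, no filter, library size alone, only the compared groups, the 3 groups of the protocol text, cage as a block, and leaving out each mouse. The cage block was fitted on only the compared groups. Values within cages, and those without R403Q-CD 2 for the other cycle genes, the lists and relative to the cardiomyocyte list, were added after seeing the data. Gene positions and exon lengths are from GENCODE (GRCm38), and promoter windows from RefSeq (GRCm38.p6).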

Additional observations from a re-analysis of the deposited data

Results flagged for a closer look

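Within groups of 4 to 7 mice, 1 of 36 groups of member levels and 2 of 24 groups of ratios held a mouse far from the rest of its group, where chance gives about 1 in 20. Idh3b was 1050 CPM in R403Q-EMPA 1 and 890.4 to 896.5 CPM in the other R403Q-EMPA mice. Idh3a to Idh3b was 0.7664 in WT-EMPA 3 and 0.8599 to 0.8951 in the other WT-EMPA mice. Idh3a to Idh3g was 1.213 in the same WT-EMPA 3 and 1.333 to 1.365 in the others.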

How the results depend on the processing

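The labels give no replicate numbers to pair, but 4 of 4 CD and 2 of 3 EMPA cages held both genotypes, and with cage as a block 0 members passed: 9 of 9 were below 0 in R403Q-CD against WT-CD (median -0.26) and 8 of 9 in R403Q-EMPA against WT-EMPA (median -0.05). The number of members past the threshold in R403Q-CD against WT-CD, 0 in the edgeR test, was 1 (Cs) with DESeq2 and 0 to 1 when each mouse was left out in turn, and stayed at 0 in the other comparisons and alternatives run. Leaving out R403Q-CD 3 gave the 1, in a fit where 6.02% of all genes passed.

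Among the members and their ratios, the differences that turned direction were all small, and the cause was not tested. In WT-EMPA against WT-CD, Cs was -0.001 without the filter, -0.004 with library size alone and -0.002 with only the compared groups. In R403Q-EMPA against WT-EMPA, library size alone gave 0.009 for Idh3a, 0.040 for Idh3g and 0.028 for Mdh2, and Idh3b was -0.001 with DESeq2, -0.003 with limma and -0.008 with cage as a block. In R403Q-EMPA against R403Q-CD, Mdh2 was -0.001 with library size alone. With each mouse left out in turn, Cs in WT-EMPA against WT-CD ran from -0.037 to 0.039. In R403Q-EMPA against R403Q-CD, Dlst ran from -0.026 to 0.099, Idh3a from -0.007 to 0.103, Idh3b from -0.073 to 0.069, Idh3g from -0.039 to 0.063, Mdh2 from -0.045 to 0.049, Sucla2 from -0.15 to 0.019 and Suclg1 from -0.056 to 0.078. In R403Q-EMPA against WT-EMPA, Idh3b ran from -0.055 to 0.035, Idh3g from -0.062 to 0.012 and Mdh2 from -0.06 to 0.003. The ratios, whose leave-outs were chosen after seeing the data, turned among IDH3 subunits and for Sucla2:Suclg1, which ran from -0.013 to 0.017 in WT-EMPA against WT-CD: among the former, in R403Q-CD against WT-CD from -0.023 to 0.037 for Idh3a:Idh3b, -0.016 to 0.029 for Idh3a:Idh3g and -0.03 to 0.022 for Idh3b:Idh3g, and for Idh3b:Idh3g from -0.032 to 0.02 in R403Q-EMPA against R403Q-CD and -0.03 to 0.008 in R403Q-EMPA against WT-CD.

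Counts over all genes moved more. R403Q-CD against WT-CD gave 250 genes, and 970 with DESeq2, 98 with the 3 groups, and 31 (without WT-CD 3) to 1045 (without R403Q-CD 3) with a mouse left out. With only the compared groups it gave 28, and 19 when cage was added as a block to that fit. R403Q-EMPA against R403Q-CD gave 2, and 157 with DESeq2, 5 with library size alone, 0 with only the compared groups or the 3 groups, and 0 (without R403Q-CD 5, for example) to 12 (without R403Q-CD 1) with a mouse left out. WT-EMPA against WT-CD gave 5, and 112 with DESeq2, 0 with library size alone and 0 to 7. R403Q-EMPA against WT-EMPA gave 10, and 299 with DESeq2 and 1 (without R403Q-EMPA 1) to 64 (without WT-EMPA 3). With only the compared groups it gave 123, and 6 when cage was added as a block to that fit. R403Q-EMPA against WT-CD gave 168, and 396 with DESeq2, 668 with only the compared groups, 84 with the 3 groups and 27 (without R403Q-EMPA 3) to 104 (without WT-CD 5). The lowest count of a member was 9465.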
